A study of Mus musculus with 6 samples.

Results

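Genes that copy the genome and genes that divide the cell were followed through a study of mouse cells with and without Dicer. The set was a fixed list of 40 genes, looked up by symbol in each deposited table, and all 40 were among the 23227 genes of the exonic tables. By textbook role, 15 act in DNA replication and 25 in mitosis. The cells were immortalized mesenchymal stem cells from adult mice, grown as monoclonal lines, and the labels also call them fibroblasts. Dicer WT cells were Dicer f/f, carrying the floxed alleles, and Dicer KO cells were Dicer -/-. The other 4 groups were made from Dicer WT cells by transfection: 1 received the vector alone and 3 received it with Pbx3, Sox9 or Tead4, so the 3 factor groups share 1 vector control. Each line is monoclonal, so the loss of Dicer and differences between clones cannot be told apart. Total RNA was depleted of ribosomal RNA and read as strand-specific single-end libraries, with reads in exons and reads in introns tabulated separately.

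A cell commits to division when G1 cyclins and their kinases, cyclin E among them, relieve RB-family repression of E2F factors. These factors switch on genes for origin licensing, the replication fork and nucleotide supply. Later, B-MYB and FOXM1, acting with the MuvB core, switch on a second wave of genes for entry into mitosis, the spindle checkpoint, the kinetochore and cytokinesis. The DREAM complex holds both waves silent in resting cells through E2F sites and through CHR elements. Dicer cuts precursor hairpins into microRNAs, several families of which are known to target cyclins and other genes of the cycle, and mesenchymal stem cells are known to divide readily in culture. Exonic reads report mostly mature mRNA, and intronic reads report mostly unspliced precursor RNA.

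Each deposited group mean was found to be the mean of 2 libraries, from which the whole reads of both were recovered. The 12 libraries held between 6130267 and 23501655 exonic reads each, and between 3156973 and 10205497 intronic ones. Mesenchymal markers were present, with Vim at 2078 to 4651 CPM (exonic reads scaled to the total of the library) and Prrx1 at 239 to 382, although Thy1 was listed at 0 in every library. The blood marker Ptprc, the endothelial marker Cdh5 and the epithelial marker Epcam reached at most 0.115 CPM. Of all 9 markers of those 3 cell types, Cd34 alone exceeded 0.596 CPM, at 0.638 to 9.07. Dicer1 stood at −0.46 ± 0.14 in Dicer KO cells on the log2 scale, and a total over the gene cannot show a deleted exon. Pbx3 and Tead4 rose in the cells that were given them, by 7.04 ± 0.21 and 7.17 ± 0.18, and Sox9, at 1.29 ± 0.39, did not pass (limma adjusted p = 0.272). Values with ± are log2 fold changes of normalised counts plus 1 with their standard error, from 2 libraries against 2. A gene is said to have risen or fallen only where limma's Benjamini-Hochberg adjusted p over all tested genes was under 0.05.

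The question of the first comparison was how far replication and mitotic transcripts differ in cells without Dicer. They differed little: in exonic reads none of the 40 members rose and 1 fell, Cenpa, while 16.6% of the 10706 genes tested were called, 9.28% higher and 7.36% lower. No member lay 2-fold apart, against 12.5% of all genes tested. The median size of the log2 difference was 0.14 for the members and 0.33 for all genes. For 37 of the 40 members the whole 95% interval stayed within 2-fold, a share of 92.5%, against 63.2% of all genes. The median standard error was 0.18 for the members and 0.18 for all genes. Both Dicer KO libraries lay outside the range of the Dicer WT libraries for 13 members, or 32.5%, against 63.3% of all genes. The median difference was 0.03 for the replication members and −0.07 for the mitotic members, beside 0.01 for all genes. At an unadjusted limma p under 0.05 stood 4 of the 40 members and 3659 of the 10706 genes, and the authors' deposited table also calls 1 member at its adjusted p, again Cenpa, and 14.0% of the genes. In RNA from a whole culture, fewer cycling cells and less RNA per cycling cell cannot be told apart.

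As shares of exonic reads, the 25 mitotic genes took 0.940% and 0.790% in the Dicer WT libraries and 0.917% and 0.767% in the Dicer KO libraries. The 15 replication genes took 0.367% and 0.347% in Dicer WT and 0.353% and 0.341% in Dicer KO. The 2 libraries of a genotype were thus further apart in mitotic reads than the genotypes were.

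**Figure D1:**
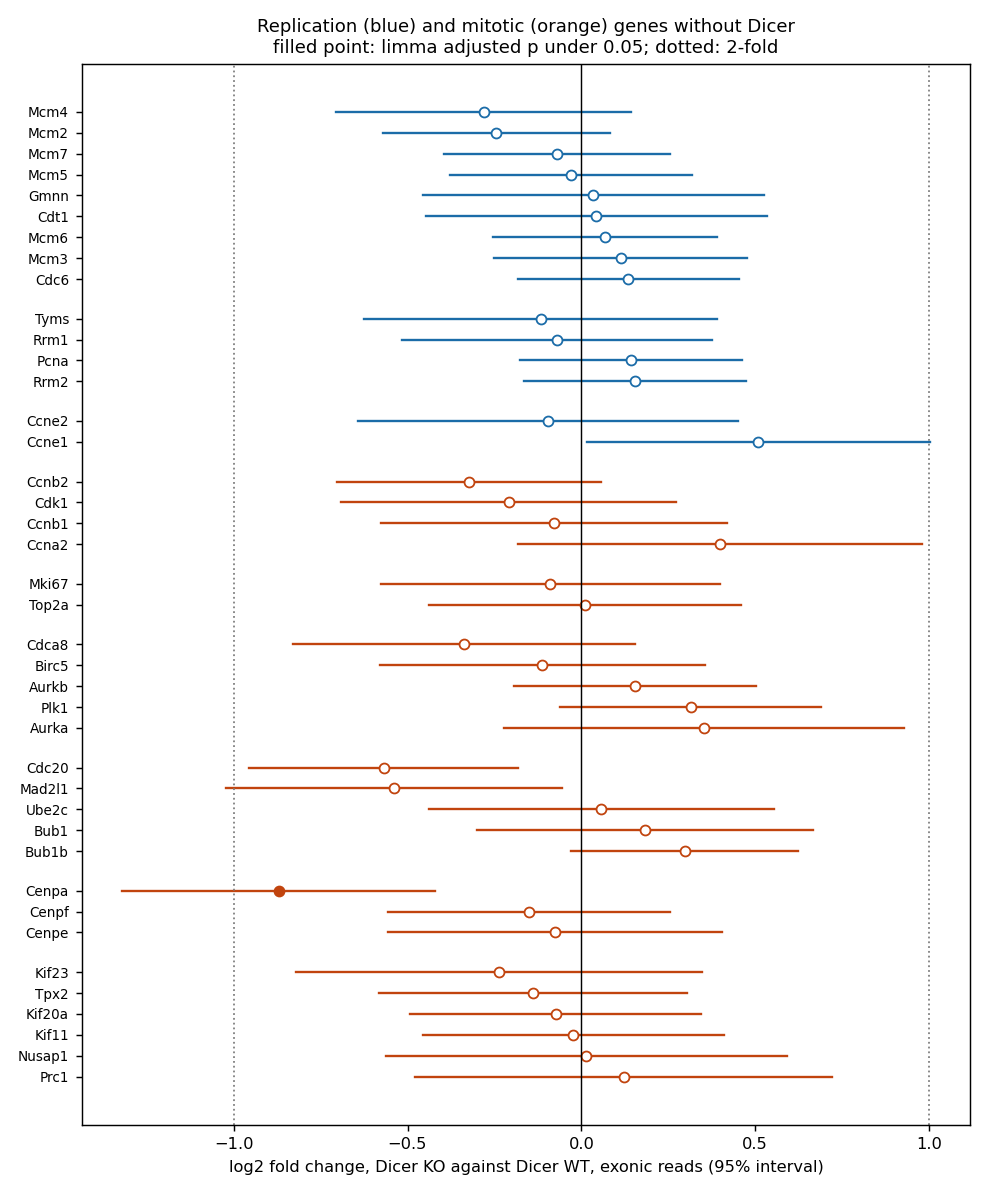
The x axis is the exonic log2 fold change of Dicer KO against Dicer WT cells with its 95% interval from limma, and each line is a gene, ordered by role, with replication members in blue and mitotic members in orange. The filled point, Cenpa at −0.87, is the member that passed the adjusted threshold, and 37 of 40 intervals lie within the dotted lines at 2-fold.

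The replication members were first read by their place in origin licensing. MCM proteins form the ring helicase that is loaded at origins before S phase. Mcm2 gave 9267 and 8416 normalised counts in Dicer WT cells and 7627 and 7286 in Dicer KO cells (−0.24 ± 0.13, limma adjusted p = 0.245). Mcm4 was the lowest replication member, with 5580 and 6759 in Dicer WT and 4596 and 5564 in Dicer KO (−0.28 ± 0.17, limma adjusted p = 0.296). Both Mcm2 and Mcm4 were lower in each Dicer KO library than in either Dicer WT library, but neither passed. Mcm3, Mcm5, Mcm6 and Mcm7 lay between −0.07 and 0.11.

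Cdc6 and Cdt1 load the helicase, and geminin, the product of Gmnn, holds Cdt1 in check after origins have fired. Cdc6 gave 1465 and 1487 normalised counts in Dicer WT and 1647 and 1597 in Dicer KO cells (0.14 ± 0.13). Cdt1 gave 1133 and 1337 in Dicer WT and 1097 and 1465 in Dicer KO (0.04 ± 0.19). Gmnn gave 1070 and 787.6 in Dicer WT and 986.5 and 896.4 in Dicer KO (0.03 ± 0.19). The Cdt1 and Gmnn libraries of the genotypes overlapped, whereas both Cdc6 libraries were slightly higher without Dicer, and none of these 3 genes passed.

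Pcna is the sliding clamp of the fork, Rrm1 and Rrm2 are the subunits of ribonucleotide reductase, and Tyms makes thymidylate. Pcna gave 7109 and 6514 normalised counts in Dicer WT and 7405 and 7618 in Dicer KO cells (0.14 ± 0.13). Rrm2 gave 4863 and 4415 in Dicer WT and 5238 and 5079 in Dicer KO (0.15 ± 0.13). Both genes were higher in each Dicer KO library, by amounts close to their standard error. Rrm1 stood at −0.07 ± 0.18 and Tyms at −0.12 ± 0.20.

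The E cyclins, which drive the start of S phase with Cdk2, had exonic differences of opposite sign, and neither passed. Ccne1 was the highest replication member, with 588 and 444 normalised counts in Dicer WT and 691 and 767 in Dicer KO cells (0.51 ± 0.20, limma adjusted p = 0.138). Both Dicer KO libraries were above both Dicer WT libraries, but the exonic difference did not pass. Ccne2 gave 4145 and 2871 in Dicer WT and 3545 and 2939 in Dicer KO (−0.10 ± 0.22), and its libraries overlapped.

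Among the mitotic members, Cdk1, the kinase that triggers mitosis, gave 10639 and 7873 normalised counts in Dicer WT and 8510 and 7362 in Dicer KO cells (−0.21 ± 0.19). Ccnb1, its main partner, gave 5461 and 4125 in Dicer WT and 5022 and 4017 in Dicer KO (−0.08 ± 0.20). Ccnb2, the other B cyclin, gave 3290 and 3338 in Dicer WT and 2938 and 2388 in Dicer KO (−0.32 ± 0.15, limma adjusted p = 0.197). Of the B cyclins, the libraries of the genotypes overlapped for Ccnb1 and were separate for Ccnb2. Ccna2, the A cyclin used in S phase and before mitosis, was the highest mitotic member, with 17079 and 12465 in Dicer WT and 22330 and 16557 in Dicer KO (0.40 ± 0.23, limma adjusted p = 0.281). None of these 4 genes passed.

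The antigen Ki-67, encoded by Mki67 and used to score proliferating cells, gave 33348 and 26044 normalised counts in Dicer WT and 30390 and 25225 in Dicer KO cells (−0.09 ± 0.19). Topoisomerase II alpha, encoded by Top2a, which untangles sister chromatids, gave 38161 and 31335 in Dicer WT and 37506 and 32355 in Dicer KO (0.01 ± 0.18). For both of these proliferation markers the libraries overlapped, and the 95% intervals ran from −0.58 to 0.40 and from −0.44 to 0.46.

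None of the Aurora and Polo kinases or of the chromosomal passenger genes passed. Aurka, which matures the spindle poles, stood at 0.35 ± 0.23, Plk1, a kinase of mitotic entry, at 0.31 ± 0.15, and Aurkb, the kinase of the chromosomal passenger complex, at 0.15 ± 0.14. Of the other subunits of that complex, Birc5 (survivin) stood at −0.11 ± 0.19 and Cdca8 (borealin) at −0.34 ± 0.19. Genes of the spindle checkpoint and of anaphase also pointed both ways. Cdc20, the activator of the anaphase-promoting complex, gave 4788 and 4093 normalised counts in Dicer WT and 3225 and 2761 in Dicer KO cells (−0.57 ± 0.15, limma adjusted p = 0.0632). Mad2l1, the checkpoint protein that binds and inhibits Cdc20, gave 3181 and 2451 in Dicer WT and 2140 and 1727 in Dicer KO (−0.54 ± 0.19, limma adjusted p = 0.117). For both genes each Dicer KO library was below each Dicer WT library, and neither passed. The checkpoint kinase genes Bub1 and Bub1b stood at 0.18 ± 0.19 and 0.30 ± 0.13, and Ube2c, the ubiquitin-conjugating enzyme of the anaphase-promoting complex, at 0.06 ± 0.20.

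Cenpa, the histone H3 variant that marks the centromere, gave 3387 and 3055 normalised counts in Dicer WT and 2024 and 1527 in Dicer KO cells. It fell by 0.87 ± 0.18 on the log2 scale (limma adjusted p = 0.0332), and both Dicer KO libraries were below both Dicer WT libraries. The call was kept without Dicer WT library 1 (−0.80) and without Dicer WT library 2 (−0.95). It was lost without either Dicer KO library, where far fewer of all genes were called too. The other kinetochore members, Cenpf and the motor Cenpe, stood at −0.15 ± 0.16 and −0.07 ± 0.19. The 6 spindle and cytokinesis genes ranged from −0.24 for Kif23, a midzone motor, to 0.12 for Prc1, the midzone crosslinker, with Kif11, Kif20a, Tpx2 and Nusap1 between them and none passing.

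**Figure D2:**
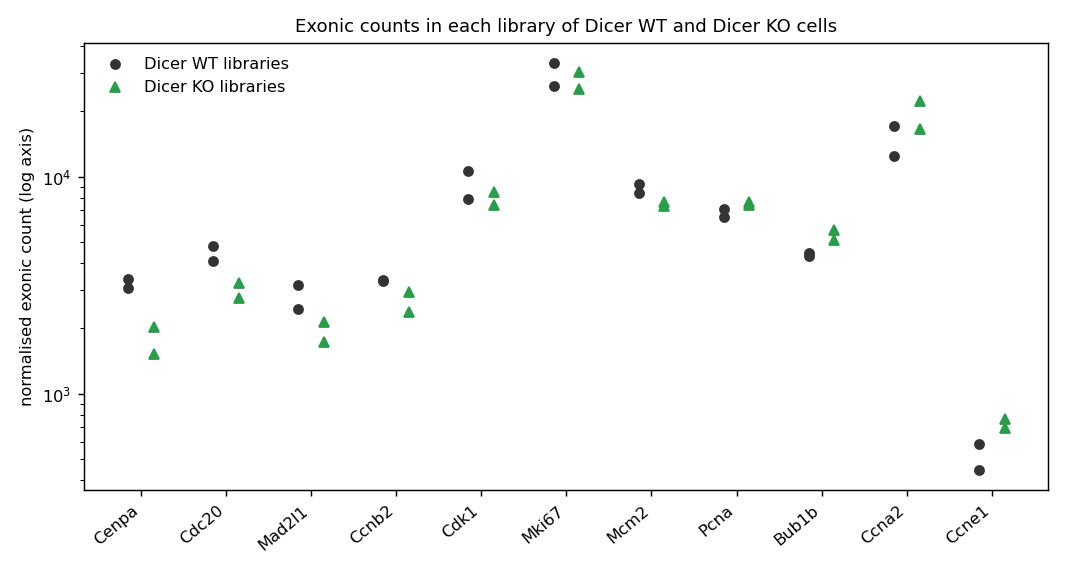
Normalised exonic counts on a log axis are drawn for 11 members, with Dicer WT libraries as black circles and Dicer KO libraries as green triangles. The Cenpa, Cdc20, Mad2l1 and Ccnb2 triangles lie below both circles, those of Ccne1 and Bub1b lie above them, and those of Mki67 overlap them.

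Intronic reads gave a second readout of the same RNA. Of the 40 members, 38 reached the minimum mean of 50 normalised counts; Cenpa was listed at 0 in intronic reads of all 4 libraries and Cdc6 had 9 reads over both Dicer WT and 8 over both Dicer KO libraries. None of the 38 passed limma, against 6.51% of the 10215 genes tested, 4 stood at an unadjusted p under 0.05, as did 2558 of those genes, and the authors' deposited table calls 0 members and 6.53% of genes. Mad2l1 gave 740 and 571 intronic counts in Dicer WT and 478 and 393 in Dicer KO cells (−0.58 ± 0.20). Cdc20 gave 809 and 654 in Dicer WT and 542 and 451 in Dicer KO (−0.56 ± 0.18). These differences were close in size to the exonic ones of the same genes. Ccnb2, at −0.46 ± 0.15, Bub1b, at 0.46 ± 0.14, and Ccna2, at 0.35 ± 0.22, also leaned in introns the way they leaned in exons.

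The difference between the exonic and the intronic change was then tested in each gene that had enough reads of both kinds. It was small for most members, from −0.22 ± 0.10 for Birc5 to 0.26 ± 0.11 for Plk1 in 37 of the 38 members measured. Ccne1 was the exception and the member that passed (0.99 ± 0.14, limma adjusted p = 0.00461), where 6.99% of the 9402 genes tested passed, 5.56% with the larger exonic change. Its exonic change exceeded its intronic change by the 80th largest amount of those 9402 genes. Intronic counts of Ccne1 were 213 and 169 in Dicer WT and 122 and 151 in Dicer KO cells (−0.48 ± 0.22, limma adjusted p = 0.255), lower in both Dicer KO libraries, while its exonic counts were higher in both. The call stayed with any 1 of the 4 libraries left out, a check added after the data were seen. At a minimum mean of 200 in both kinds of reads, Ccne1 was no longer tested.

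**Figure D3:**
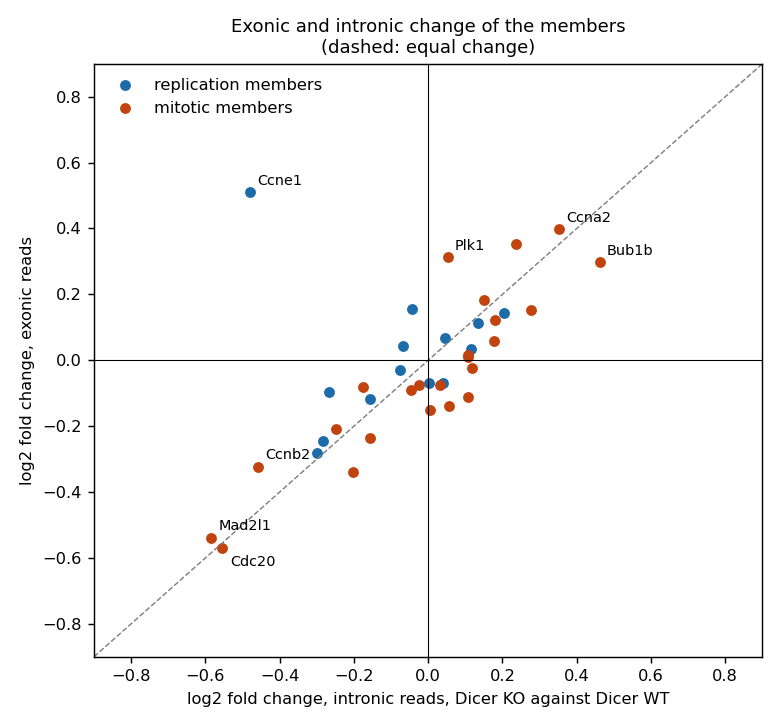
Each point is 1 of 38 members, with the intronic log2 fold change of Dicer KO against Dicer WT cells on the x axis and the exonic one on the y axis, and the dashed line marks equal change. Ccne1 stands at −0.48 on the x axis and 0.51 on the y axis, and the other members lie nearer the dashed line.

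MicroRNAs act on mRNA after splicing, mainly through pairing of their seed, bases 2 to 8, with the 3′ untranslated region (3′UTR). Because Ccne1 was the member whose exonic and intronic changes parted, its 3′UTR was searched, with those of the other members, for matches to the seeds of let-7, miR-15/16, miR-17 and miR-26, families known to target cell cycle genes that were chosen with these results known. The 3′UTRs came from the GENCODE annotation of GRCm38. The 531-base 3′UTR of Ccne1 holds 1 match to the miR-15/16 seed, beginning at base 485, and 1 to the miR-26 seed, beginning at base 258. The mature microRNAs (RefSeq, GRCm38.p6) have the seed in capitals, and the 3′UTR stretches have its match in capitals, all 5′ to 3′.
mmu-miR-16-5p: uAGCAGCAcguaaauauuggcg
mmu-miR-15b-5p: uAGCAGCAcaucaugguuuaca
Ccne1 miR-15/16 match: ttattttgtaagTGCTGCTatgtctatcaa
mmu-miR-26a-5p: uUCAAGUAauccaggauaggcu
Ccne1 miR-26 match: taaggagggtgcTACTTGAcccactggact

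Such matches are common and were also present in other members. The miR-15/16 match TGCTGCT was present in the 3′UTR of 20.1% of 20979 genes, and among the members in Ccne1, Cdc6, Aurka, Birc5, Cdk1, Kif23 and Nusap1. The miR-26 match TACTTGA was present in 9.67% of genes, and among the members in Ccne1, Ccne2 and Mad2l1. The exonic minus intronic change of the other members with either match ran from −0.22 for Birc5 to 0.17 for Ccne2, and none passed. Cdc6 had too few intronic reads to be measured. The let-7 match CTACCTC was in 8.96% of genes and in Rrm2, Birc5, Kif11 and Nusap1, and the miR-17 match GCACTTT in 11.7% of genes and in Mcm3, Mcm7, Rrm2 and Kif23. A match is a run of letters, and whether any of these microRNAs acts on the gene in these cells was not tested.

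Other genes of the same pathways were counted from 3 lists drawn up with earlier results known. Of 19 E2F, RB and DREAM regulators tested in exonic reads of Dicer KO cells, 2 rose and 1 fell, with a median of 0.06. The repressor E2f6 rose by 1.43 ± 0.17 (limma adjusted p = 0.00889) and E2f5, another repressive E2F that is named here after its value was seen, by 1.12 ± 0.13 (limma adjusted p = 0.00876), while the dimerization partner Tfdp2 fell by 0.57 ± 0.13 (limma adjusted p = 0.0408). E2f6 also rose in intronic reads, by 1.40 ± 0.17 (limma adjusted p = 0.0168). Of 48 other replication genes tested, 2 rose and 2 fell, with a median of −0.07. The highest was the flap nuclease Dna2 (0.78 ± 0.18, limma adjusted p = 0.0453) and the lowest Gins3, a subunit of the replicative helicase (−0.80 ± 0.17, limma adjusted p = 0.0387). The others that passed, also named after their values were seen, were the polymerase delta subunit Pold3, which rose by 0.67, and the fork protection factor Tipin, which fell by 0.72.

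Of 71 other mitotic genes tested, 2 rose and 5 fell, with a median of −0.13. Fbxo5, the inhibitor of the anaphase-promoting complex, was the lowest (−1.08 ± 0.24, limma adjusted p = 0.0396) and Zwint, a kinetochore protein, the highest (0.81 ± 0.14, limma adjusted p = 0.0235). The other genes that passed, named here after their values were seen, were Cdc25b, which rose by 0.67, and Cdkn3, Cenpm, Spc24 and Kif2c, which fell by 0.95, 0.92, 0.70 and 0.67. Zwint, Cenpm and Spc24 are kinetochore proteins, Kif2c is a microtubule depolymerase, Cdc25b activates Cdk1 and Cdkn3 is a phosphatase of cyclin-dependent kinases. The called shares of the 3 lists, with 3 of 19, 4 of 48 and 7 of 71 genes, stand beside the 16.6% of all genes.

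The second question was whether Pbx3, Sox9 or Tead4 given to Dicer WT cells moved the same genes. Without a term for library order, no member passed limma in exonic or intronic reads with any of the 3 factors, and the authors' deposited tables call 0 members in each. Those tables call 0.132%, 1.12% and 2.09% of all genes for Pbx3, Sox9 and Tead4 in exonic reads and 0.175%, 1.91% and 1.72% in intronic reads. In exonic reads, limma called 0.0102% of all genes tested for Pbx3, 0.547% for Sox9 and 0.143% for Tead4, so few calls of any kind were made. Members at an unadjusted limma p under 0.05 numbered 1 for Pbx3, 1 for Sox9 and 4 for Tead4, beside 233 of 9826, 1263 of 9698 and 1554 of 9796 genes. The whole 95% interval lay within 2-fold for 39, 40 and 40 of the 40 members, against 82.3%, 81.0% and 83.0% of all genes. In intronic reads limma called 0 of 8557 genes for Pbx3, 1.99% for Sox9 and 1.61% for Tead4, and the members at an unadjusted p under 0.05 numbered 1, 2 and 4, beside 248 of 8557, 1438 of 8361 and 1327 of 8582 genes. A term for library order, taken from the data and not from the labels, was also tried. The order was chosen so that library differences were positively correlated between groups, so a smaller spread was built in. With that term some members did pass, as did many more genes. In exonic reads these were Mad2l1, Mcm2 and Ccnb2 with Pbx3 (6.07% of genes passing), Cdk1 and Aurka with Sox9 (18.5%) and Mad2l1 with Tead4 (8.75%). In intronic reads they were Rrm2 and Ccnb2 with Pbx3 (7.28%), Rrm2 and Cdk1 with Sox9 (18.6%), and Rrm2, Mad2l1, Kif23, Prc1, Top2a and Kif11 with Tead4 (16.2%). Of these, Aurka was above vector and the others were below it.

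With Pbx3, Ccne1 was the lowest replication member, with 168 and 159 normalised counts with vector and 102 and 133 with Pbx3 (−0.49 ± 0.24), and Mcm7 the highest (0.14 ± 0.15). Mad2l1 was the lowest mitotic member, with 1425 and 1652 with vector and 1145 and 1157 with Pbx3 (−0.41 ± 0.16), and Cdc20 the highest, with 1469 and 1527 with vector and 2012 and 1623 with Pbx3 (0.27 ± 0.18). Each of these 4 genes had separate ranges with and without Pbx3, as was so for 11 members, or 27.5%, and 24.7% of all genes.

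With Sox9, the lowest mitotic member was Cdk1, with 3424 and 4017 normalised counts with vector and 2665 and 2767 with Sox9 (−0.45 ± 0.17), and the highest was Aurka, with 684 and 789 with vector and 856 and 1116 with Sox9 (0.41 ± 0.19). Rrm1 (−0.27 ± 0.17) and Mcm6 (0.27 ± 0.17) were the extremes of the replication members. Non-overlapping libraries were seen for 9 members, or 22.5%, against 45.3% of all genes.

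With Tead4, Mad2l1 was the lowest mitotic member, with 1407 and 1627 normalised counts with vector and 1081 and 1031 with Tead4 (−0.52 ± 0.14), and Bub1b the highest (0.29 ± 0.12). Rrm2 was the lowest replication member, with 3092 and 2823 with vector and 2356 and 2192 with Tead4 (−0.38 ± 0.13), and Pcna the highest, with 2477 and 2201 with vector and 3005 and 3081 with Tead4 (0.38 ± 0.13). Non-overlapping libraries were seen for 19 members, or 47.5%, against 49.2% of all genes. The count of calls rested on the vector libraries: without vector library 1, 12 members passed, and without vector library 2, 2 passed, when 24.2% and 11.6% of all genes passed. Among the members that passed without vector library 1, Prc1, Kif23, Mad2l1 and Kif11 were the lowest, from −0.71 to −0.56. Cdt1 and Pcna were above vector at 0.66 and 0.47. The lone vector library is taken in that fit to vary as the 2 Tead4 libraries do. That library, vector library 2, had the highest mitotic share of exonic reads of all libraries, at 1.11%, against 0.879% in vector library 1. Sox9 library 2 was close to it, at 1.09%. Whether this share bears on the calls was not tested.

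Mad2l1 stood below control in every comparison, at −0.54 without Dicer and at −0.41, −0.36 and −0.52 with Pbx3, Sox9 and Tead4. Those last 3 share their control libraries. Mcm2, Mki67, Cdk1 and Cenpa were below control in every comparison too, and the share of all genes with that pattern was not counted. Of the E2F, RB and DREAM regulators, none passed in exonic reads with any factor, and E2f6 fell by 1.54 ± 0.25 in intronic reads with Tead4 (limma adjusted p = 0.0329). Its exonic value with Tead4 was −1.75 and did not pass.

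**Figure D4:**
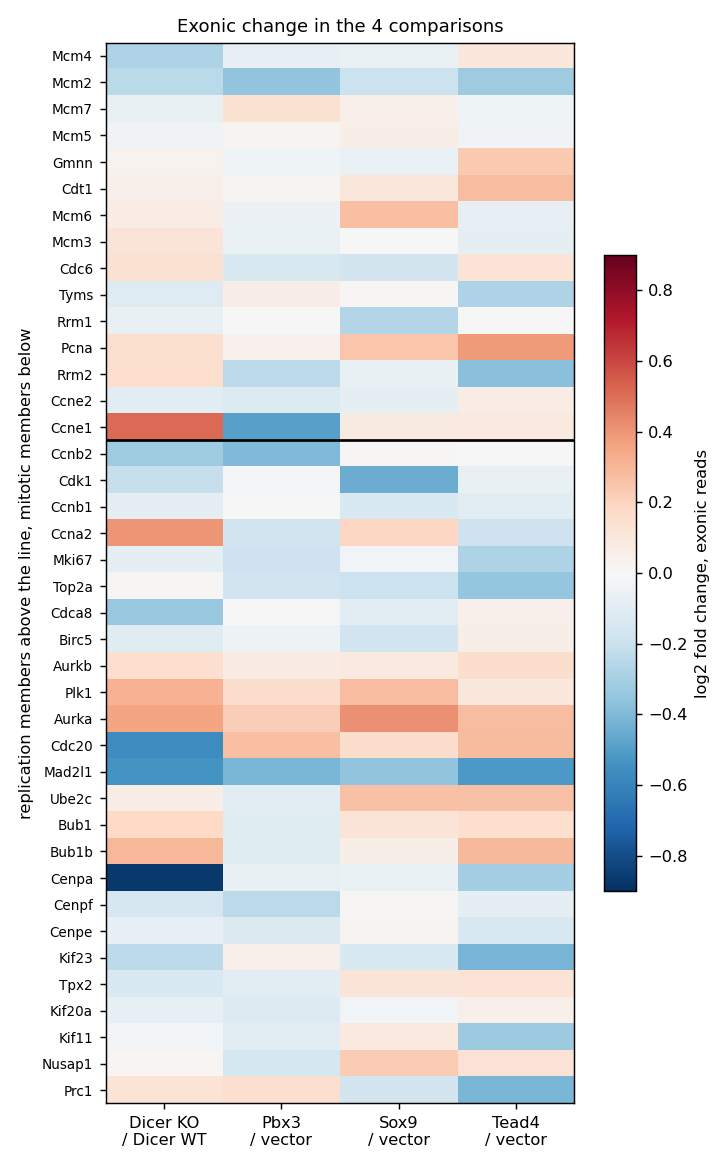
Rows are the 40 members, with replication members above the black line and mitotic members below it, and columns are the 4 comparisons, coloured by exonic log2 fold change. Cenpa in the Dicer KO column, at −0.87, is the deepest cell. Mad2l1 is below control in all 4 columns, as are Mcm2, Mki67, Cdk1 and Cenpa. The 3 factor columns share the vector libraries.

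Between the 2 libraries of a group, the mitotic members differed together in 4 of the 6 groups. The libraries were put in 1 order, A and B, by 9068 genes outside the members and pathway lists. With that order the library differences of these genes were positively correlated between every 2 groups, at 0.31 to 0.82. In CPM, the median log2 ratio of library A to library B over the 25 mitotic members was 0.26 for Dicer WT cells, 0.29 without Dicer, 0.33 with vector and 0.36 with Sox9, but 0.09 with Pbx3 and 0.01 with Tead4. Library A was the higher for 23, 22, 22 and 25 of the 25 in the first 4 of these groups and for 15 and 14 in Pbx3 and Tead4. All genes with a mean of at least 50 exonic reads in every group had medians from −0.04 to 0.08. The shares of all genes given next are over this set. Library A was the higher for 44.7%, 54.1%, 46.0% and 60.7% of all genes in Dicer WT, Dicer KO, vector and Sox9 cells. With Pbx3 and Tead4 the shares were 46.1% and 46.5%. The replication members had smaller or opposite medians, of 0.07 for Dicer WT cells, 0.05 without Dicer, −0.14 with vector, 0.03 with Sox9, −0.19 with Pbx3 and −0.06 with Tead4. Library A was nevertheless the higher for 12 of the 15 replication members in Dicer WT and 11 in Dicer KO cells, where it was so for 44.7% and 54.1% of all genes. It was the higher for 4 of 15 with vector, 9 with Sox9, 2 with Pbx3 and 6 with Tead4. The shares of all genes there were 46.0%, 60.7%, 46.1% and 46.5%. These are differences between single libraries and carry no test.

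Cenpf, a kinetochore protein that builds up before mitosis, had 347 and 564 CPM in vector libraries B and A, 386 and 529 in Sox9 libraries B and A, and 424 and 421 in Tead4 libraries A and B. Cdt1, whose protein is used before S phase, went the other way in several groups, with 79.3 and 44.4 CPM in vector libraries B and A, 82.2 and 43.9 in Pbx3 libraries B and A, and 68.5 and 50.9 in Dicer KO libraries B and A. In Sox9 cells Cdt1 was instead higher in library A, at 79.1 against 52.8, and in Tead4 cells it was level, at 72.9 and 72.7. Mcm4 was higher in library B in all 6 groups. Library A was the higher in all 6 for 8 members, the replication gene Tyms and the mitotic genes Cenpe, Cenpf, Kif20a, Kif23, Birc5, Ube2c and Cdca8. The order was chosen to make the groups agree over other genes, and the share of all genes with either pattern was not counted. The labels do not tell how the libraries of a group differ, and what sets the libraries apart was not tested.

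**Figure D5:**
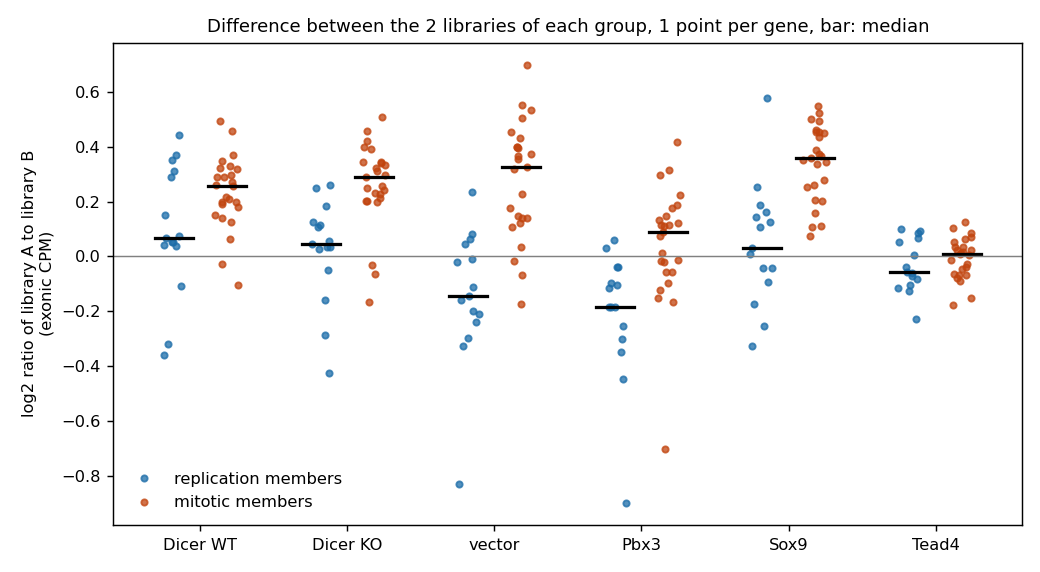
The y axis is the log2 ratio of exonic CPM in library A to library B of each group, with 1 point per gene, replication members in blue, mitotic members in orange and the median as a black bar. The mitotic medians lie at 0.26 to 0.36 in Dicer WT, Dicer KO, vector and Sox9 cells and at 0.09 and 0.01 in Pbx3 and Tead4 cells.

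With a fit that takes this library order as a term, the standard errors of the Dicer KO comparison became smaller and 10 members passed, while 47.2% of all genes did. Below Dicer WT were Cenpa, Cdc20, Mad2l1, Cdca8, Ccnb2 and Mcm4, and above it were Ccne1, Ccna2, Aurka and Bub1b. The log2 fold changes are the same as above, since each group holds 1 library of each order. The order comes from the data and not from the labels. It was chosen so that library differences over genes outside the members and lists were positively correlated between groups. A smaller spread with this term was thus built in, and these calls add no separate support for the genes named.

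The promoters of the members were searched for elements known to divide the 2 waves, and whether these bear on the differences between libraries was not tested. RefSeq promoters of GRCm38.p6, from 250 bases before to 50 bases after the start, were found for 33 of the 40 members, 12 for replication and 21 for mitosis. Aurkb, Ccna2, Ccne2, Gmnn, Kif20a, Mcm4 and Tpx2 had no entry. Letters were searched on both strands. A member was counted if any of its promoters held the motif, while the share of all promoters is per promoter. The CHR core, spelled TTTGAA, was present in 15 of 21 mitotic promoters, or 71.4%, in 1 of 12 replication promoters, that of Mcm2, and in 17.9% of all 32851 promoters. An E2F form, TTCCCGC, was present in 0 of 21 mitotic promoters, in 5 of 12 replication promoters, those of Cdc6, Cdt1, Mcm3, Mcm7 and Rrm1, and in 4.60% of all promoters. A further E2F form, TTGGCGC, was present in 3 of 21 mitotic promoters, in 5 of 12 replication promoters and in 2.45% of all promoters. The binding motif of NF-Y, CCAAT, was present in 18 of 21 mitotic promoters, in 8 of 12 replication promoters and in 37.4% of all promoters. The motifs can share letters where they overlap.

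The promoters of 3 members show the arrangement: Cenpa and Cdc20 for the mitotic members with CHR and NF-Y letters, and Mcm3 for the replication members with both E2F forms. Capitals mark the 4 motifs on either strand, and each is printed 5′ to 3′ on the gene's strand. The windows are chr5:30666636-30666935 on the plus strand for Cenpa, chr4:118437294-118437593 on the minus strand for Cdc20 and chr1:20820263-20820562 on the minus strand for Mcm3, all in GRCm38.p6.
Cenpa promoter: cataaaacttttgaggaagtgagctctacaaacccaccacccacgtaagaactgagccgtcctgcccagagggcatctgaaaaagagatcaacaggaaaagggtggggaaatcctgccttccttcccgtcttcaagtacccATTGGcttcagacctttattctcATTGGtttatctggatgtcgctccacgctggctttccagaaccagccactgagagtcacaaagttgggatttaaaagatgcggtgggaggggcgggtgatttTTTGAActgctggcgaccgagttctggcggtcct
Cdc20 promoter: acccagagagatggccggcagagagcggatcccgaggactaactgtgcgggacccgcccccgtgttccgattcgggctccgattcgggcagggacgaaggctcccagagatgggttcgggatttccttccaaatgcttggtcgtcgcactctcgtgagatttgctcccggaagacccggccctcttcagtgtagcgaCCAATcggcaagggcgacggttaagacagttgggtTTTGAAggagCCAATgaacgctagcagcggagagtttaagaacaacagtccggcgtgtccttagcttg
Mcm3 promoter: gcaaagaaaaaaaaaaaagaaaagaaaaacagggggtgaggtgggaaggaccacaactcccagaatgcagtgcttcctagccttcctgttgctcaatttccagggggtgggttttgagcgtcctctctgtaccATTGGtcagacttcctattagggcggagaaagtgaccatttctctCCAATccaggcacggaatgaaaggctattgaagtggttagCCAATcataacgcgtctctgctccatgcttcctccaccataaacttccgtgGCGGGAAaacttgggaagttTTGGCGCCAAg

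Counted from the annotated start, the CHR letters begin at base 17 in Cenpa and at base −18 in Cdc20, and each window holds 2 NF-Y motifs. In Mcm3 the E2F letters begin at bases 20, 40 and 43, the last 2 overlapping on opposite strands. A match of letters describes the window and is not evidence that a factor binds it in these cells.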

How the data were processed

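Per the submitters' processing notes, the genome build was mm9 and the tools were Bowtie2 and DESeq 1.10.1. The deposited signal columns hold the mean of each group's read counts after division by size factors. The p-value columns were deposited by the authors from their own test. The gene annotation and the use of strand or of shared reads in counting are not recorded in the labels or headers, so members that overlap another gene are uncertain.

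Whole reads of 2 libraries per group were recovered from the deposited means, with a unique solution for 100% of 23227 exonic and 23231 intronic genes (tolerance 1e-09). The labels list 1 sample per group and do not say whether the libraries are separate cultures, so p-values measure only the spread between libraries, which may be technical. Library 1 has the larger exonic size factor in each group, and intronic libraries were matched to exonic ones by the direction of their difference. The limma test (version 3.58.1, R 4.3.3, trended variance) used log2 of normalised count plus 1 over genes with a mean of at least 50, Benjamini-Hochberg adjusted at 0.05. That mean is over both groups, so high counts in 1 group suffice; all 40 members passed it in exonic reads and 37 or 38 in intronic reads. Scripts were tested on simulated data. CPM values were computed here from each library's total recovered exonic reads. The members, lists, motifs and seeds were chosen with earlier results of these data known. Named genes were set members of each role, members that passed limma, and the highest and lowest of each class in each comparison. No value column was left without a group (0 unmapped).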

Additional observations from a re-analysis of the deposited data

How the results depend on the processing

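Alternative values were drawn up for the counts of called members and for the class medians. Of these, 160 stayed within 1.5 times the count or, for medians, within the spread of the class median between libraries of a group. Counts of 0 under both settings are among those 160. Of the rest, 15 counts were higher, 3 were lower and 4 medians moved further. With reads scaled by library total, 2 members passed in exonic reads of Dicer KO cells. Of all genes, 990 were then called higher and 839 lower, beside 994 and 788 with size factors. With a term for library order, 10 passed in exonic and 5 in intronic reads of Dicer KO cells (47.2% and 30.5% of all genes), 3 and 2 with Pbx3 (6.07% and 7.28%), 2 and 2 with Sox9 (18.5% and 18.6%), 1 and 6 with Tead4 (8.75% and 16.2%), and 4 for the exonic minus intronic change (23.8%). At a minimum mean of 200 the last count was 0, since Ccne1 was no longer tested. With each library left out in turn, the exonic Dicer KO count ran from 0 to 3, with 0 without either Dicer KO library and 3 without Dicer WT library 2. The Tead4 counts ran from 0 to 12 in exonic and from 0 to 3 in intronic reads, with the highest values without vector library 1. The replication median for Dicer KO ran from −0.10 to 0.12 and for Pbx3 from −0.15 to 0.00026, and the mitotic median from −0.26 to 0.12 for Dicer KO, −0.29 to 0.14 for Pbx3, −0.22 to 0.19 for Sox9 and −0.17 to 0.15 for Tead4, so these medians changed sign with the library left out. A fit with 1 library in an arm takes that library to vary as the other group does. With a library left out, the share of all genes called moved as well. For exonic Dicer KO reads that share fell without either Dicer KO library and changed little without Dicer WT library 2. With Tead4 it rose in exonic and in intronic reads without vector library 1. The counts of members in these fits thus do not set the members apart from other genes. The labels give no replicate numbers, so the library order was the pairing tried, and the smaller spread with it was built in by how the order was chosen. With 2 libraries a group, a member that did not pass is not shown to be unchanged.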
